A study of Homo sapiens with 18 samples.

Results

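PEA1 and PEO1 are established human ovarian cancer cell lines that the labels class as clinically platinum sensitive, and they come from different patients with high-grade serous ovarian cancer. Per the study, PEA1 was isolated from ascites before platinum chemotherapy, whereas PEO1 was isolated after platinum treatment but before clinical resistance. The labels name no drug treatment of the cultures, and all lines shared the same growth medium with fetal bovine serum. The comparison used the 6 libraries of these lines, 3 replicates each, out of 18 libraries in the series. Each line is a single culture lineage from 1 patient, so a difference between the lines cannot be told apart from a difference between patients, sampling sites or treatment histories. Nothing in the labels says that replicates came from separate cultures, and p-values measure only the spread between these libraries, which may be technical. Accessibility was measured by ATAC-seq, in which the Tn5 transposase cuts open DNA, as FPKM (fragments per kilobase of window, scaled to the mapped reads of the library) in windows of about 1 kb on hg19. Of 89428 windows listed, 76425 had a mean over 1 FPKM in the 6 libraries and were tested.

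Open chromatin marks promoters and distal regulatory elements such as enhancers, and the set of open distal elements is a record of cell lineage. Serous ovarian carcinomas resemble the epithelium of the fallopian tube and keep Müllerian transcription factors such as PAX8, and they range from an epithelial to a mesenchymal state. AP-1, a dimer of FOS and JUN family proteins, and RUNX proteins are sequence-specific factors that bind many distal elements.

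Most windows that differed were distal, meaning more than 5 kb from any protein-coding start. Stretches of 127 bases are shown from those distal windows, named below with their values, that held the AP-1 motif TGANTCA if higher in PEO1, or the RUNX motif TGTGGTT if higher in PEA1. These motifs are shown because their shares differed between the directions at like base composition. Sequences are from the plus strand of GRCh37, and capitals mark only the match, on either strand, to the motif for which the window is shown that lies nearest the window centre. The PEA1 stretch also holds, in lower case, another RUNX match and an AP-1 match near its end. The PEA1 stretch lies at chr21:33971689-33971815, and the PEO1 stretches lie, in order, at chrX:147691710-147691836, chr10:44796839-44796965, chr5:81653007-81653133, chrX:138188381-138188507 and chr14:83322623-83322749.
Exon of CFAP298, higher in PEA1: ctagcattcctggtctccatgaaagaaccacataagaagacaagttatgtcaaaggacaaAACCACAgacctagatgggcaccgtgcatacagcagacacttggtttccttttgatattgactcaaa
Intron of AFF2, higher in PEO1: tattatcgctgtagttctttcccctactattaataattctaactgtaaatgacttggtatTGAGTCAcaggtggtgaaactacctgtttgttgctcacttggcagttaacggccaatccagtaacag
Intergenic, nearest CXCL12, higher in PEO1: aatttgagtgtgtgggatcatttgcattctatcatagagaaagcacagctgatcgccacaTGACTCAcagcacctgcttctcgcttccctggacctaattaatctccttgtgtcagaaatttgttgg
Intergenic, nearest RPS23, higher in PEO1: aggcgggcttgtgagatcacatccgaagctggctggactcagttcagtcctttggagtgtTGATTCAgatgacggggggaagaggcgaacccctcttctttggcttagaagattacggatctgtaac
Nearest FGF13, higher in PEO1: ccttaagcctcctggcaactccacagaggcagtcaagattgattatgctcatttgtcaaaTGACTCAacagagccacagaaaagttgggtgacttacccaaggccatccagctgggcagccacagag
Intergenic, nearest SEL1L, higher in PEO1: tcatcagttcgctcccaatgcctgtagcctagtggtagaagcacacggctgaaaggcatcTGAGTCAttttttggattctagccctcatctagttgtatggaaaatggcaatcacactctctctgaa

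The first question was how far the accessible genomes of the lines differed. After quantile normalisation, 5395 windows (7.06% of those tested) were more accessible in PEA1 and 7949 (10.4%) were more accessible in PEO1, at a log2 fold change over 2 in size and a limma adjusted p under 0.001. Positive log2 fold changes are higher in PEA1 throughout. In all of these windows the 3 libraries of one line lay beyond the 3 of the other, as did those of 74.1% of all windows tested. The balance between the directions depended on scaling. The lines differed in the share of reads falling in the listed windows, which was 12.9 to 16.8% in PEA1 and 38.9 to 40.8% in PEO1. On the deposited FPKM without further scaling, 2168 windows were higher in PEA1 and 24655 in PEO1, and the median over all windows tested was -1.42 on the log2 scale instead of -0.13. Removing a trend on GC content gave 5841 and 3646 windows. A difference in library quality and a difference in how open the genomes are cannot be told apart here, so directions below are relative to the bulk of the windows.

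Sites higher in PEO1 were nearly all distal and AT-rich, whereas those higher in PEA1 were nearer to genes and GC-rich. Distal windows made up 91.3% of those higher in PEO1, 63.5% of those higher in PEA1 and 54.0% of all tested. By gene annotation, 61.2% of the windows higher in PEO1 were intergenic and 3.04% lay at promoters (from 1 kb upstream to 100 bases downstream of a protein-coding start). Of the windows higher in PEA1, 46.9% were intronic, 32.5% intergenic and 10.6% at promoters, against 36.3%, 35.1% and 21.7% of all tested. With all basic transcripts in place of protein-coding ones, 40.6% of the windows higher in PEO1 were intergenic, 48.5% intronic and 6.13% at promoters, and 15.4% of those higher in PEA1 were at promoters. Median GC content was 41.8% in windows higher in PEO1, 54.4% in those higher in PEA1 and 50.8% in all. The GC difference moved with the line, and its part in the distal result was not tested.

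Base composition was held within classes to describe the motifs of the distal windows, since motif matches follow GC content. Motifs were searched as exact letters on both strands, and no match says only that these letters are not in the window. The AP-1 motif was more frequent in windows higher in PEO1 than in those higher in PEA1 within each class. It was held by 69.0% against 48.2% below 45% GC, where 64.1% of all distal windows held it. Between 45 and 55% GC the shares were 61.4% and 41.6%, with 52.7% of all, and above 55% GC they were 41.7% and 22.8%, with 29.6% of all. The RUNX motif ran the other way. It was in 33.8% of windows higher in PEA1 and 20.2% of those higher in PEO1 below 45% GC, and in 31.4% and 21.2% between 45 and 55% GC. The half-site GTTAATNAT of HNF1 homeodomain proteins was in 11.9% of PEA1 and 5.3% of PEO1 windows below 45% GC, and in 6.7% and 1.9% of those between 45 and 55% GC. GRHL, the epithelial grainyhead motif AACNGGTT, was in 10.3% of PEO1 and 6.3% of PEA1 windows below 45% GC, and in 9.1% and 5.4% between 45 and 55% GC, but in 2.7% and 2.4% above 55% GC. Shares of CTCF (AGGGGGC) and SP/KLF (GGGCGG) matches over all distal windows were 25.5% and 36.7% in PEA1 against 8.3% and 12% in PEO1, but within GC classes they lay much closer. Neighbouring windows overlap by about 100 bases and are not independent, so these shares carry no test. They cover all called distal windows, also those that lost the call after removal of 5 Mb bin medians, described below. The shares were not recounted without the latter.

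**Figure D1:**
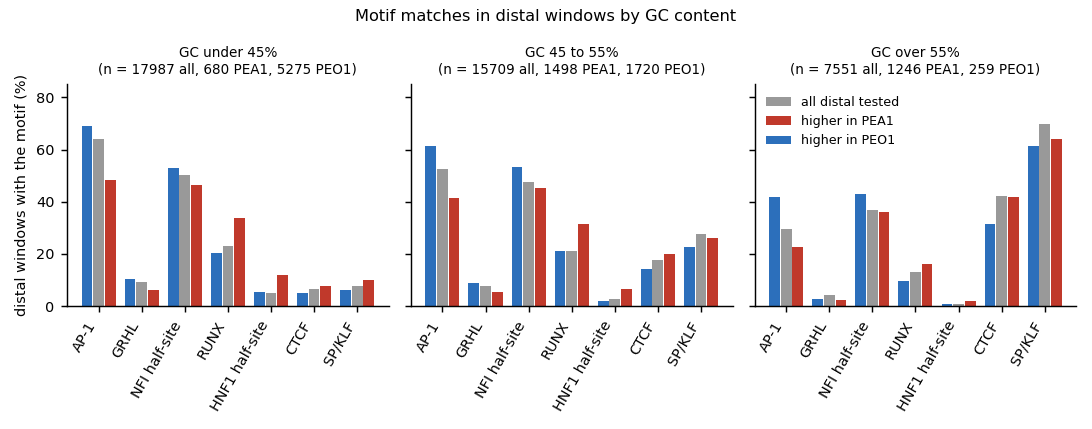
Share of distal windows holding each motif (y axis, %) in 3 classes of GC content, for all distal windows tested (grey), those higher in PEA1 (red) and those higher in PEO1 (blue). The AP-1 bar of PEO1 stands above that of PEA1 in each class (69.0% against 48.2% in the lowest GC class), and the RUNX and HNF1 half-site bars of PEA1 stand above those of PEO1.

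Among distal windows, those with the largest differences held few or no reads in one line. The intergenic window at chr6:45655200-45656200, 265 kb from the start of RUNX2, held 148, 165 and 82 reads in PEA1 and 0 in each PEO1 library, at least 40.1-fold higher relative to the reads in listed windows, counting each 0 as 3 reads. The window at chr17:4383900-4384900, in an intron of SPNS3, held 188, 213 and 109 reads in PEA1 and 0, 0 and 2 in PEO1 (log2 fold change 5.96 ± 0.32 SE, limma adjusted p = 2.6e-11), and its log2 fold change was 3.56 once 5 Mb bin medians were removed. The exonic CFAP298 window shown above, at chr21:33971400-33972400, held 172, 153 and 82 against 0, 2 and 0 reads (log2 fold change 5.69 ± 0.31). An intergenic window 170 kb from SOX4, a gene for a transcription factor of progenitor cells, held 206, 228 and 86 against 2, 0 and 1 reads. The window 76.3 kb from KLF6 held 156, 169 and 76 against 2, 0 and 0 reads. In each of these windows every PEA1 library held at least 76 reads and no PEO1 library more than 2.

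An intergenic window at chr8:126653400-126654400, 208 kb from TRIB1, had the highest normalised FPKM of the named distal windows. On the deposited FPKM its mean was 14.5 in PEA1, below the mean of 32.5 in PEO1 at the AFF2 window. Normalised FPKM there was 29.3, 26.9 and 30.8 in PEA1 and 0.719, 0.524 and 0.416 in PEO1 (log2 fold change 5.50 ± 0.16 SE, limma adjusted p = 6.7e-14).

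On the PEO1 side the intronic AFF2 window at chrX:147690900-147691900 held 306, 357 and 317 reads in PEO1 and 11, 2 and 3 in PEA1 (log2 fold change -5.97 ± 0.35 SE, limma adjusted p = 8.3e-11). The window 83.4 kb from CXCL12, which encodes a chemokine, held 174, 225 and 165 against 6, 2 and 3 reads. The window nearest RPS23 held 115, 156 and 140 against 4, 0 and 4 reads, and that nearest FGF13 held 95, 99 and 84 against 4, 1 and 1. A window 1322 kb from the nearest coding start, that of SEL1L, held 134, 145 and 125 against 5, 6 and 0 reads, and a window 40.1 kb from GLRA2 held 79, 105 and 88 against 5, 1 and 0. No PEA1 library held more than 11 reads in any of these windows. Removal of 5 Mb bin medians, described below, lowered the AFF2 window to -3.75 and left these windows between -5.12 and -3.12.

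Called distal windows also fell in clusters, here runs separated by short gaps. The genes with most distal calls nearby were taken from each side, a count that follows how many windows a gene has around it. For PEO1, 14 of 24 distal windows nearest DLG2, a postsynaptic scaffold, and 11 of 16 nearest GRIN2A, an NMDA receptor subunit, were higher in PEO1. All 11 windows nearest FGF13 and all 9 nearest CHRDL1, a BMP antagonist, were higher in PEO1, with medians of -4.32 and -3.14 on the log2 scale, as were all 8 nearest CNTN6. None of the windows nearest these genes was called higher in PEA1. After the median of each 5 Mb bin was removed, 6 of the FGF13, 5 of the CHRDL1, 7 of the GRIN2A, 4 of the DLG2 and 0 of the CNTN6 windows remained called. For PEA1 the leading genes were ADGRB1 (44 of 50 windows), ARC (40 of 43), MAFA (20 of 21), TSNARE1 (20 of 23) and PTP4A3 (18 of 24), all near the end of the long arm of chromosome 8, and 0 of these windows remained called after bin removal. A cluster of 19 windows at chr16:569700-605800, by CAPN15 and PRR35, had a median of 3.20 and kept 17 calls.

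Part of the difference between the lines ran in blocks of chromosome. Differences between 5 Mb bins held 35.5% of the variance in fold change (log2), whose medians ranged from -2.65 to 2.40 over 575 bins with at least 20 windows. The first 5 Mb of chromosome 17 had the highest median, with 199 of 278 windows higher in PEA1 and 0 higher in PEO1. On chromosome 8 from 140 to 145 Mb, 468 of 873 windows were higher in PEA1, and on chromosome 6 from 40 to 45 Mb, 95 of 212 were. The X chromosome lay at the other end: 733 of its 2315 windows were higher in PEO1 and 4 in PEA1, with a median of -1.29. On chromosome 3, 1085 of 5323 windows were higher in PEO1. Read depth in a window follows both accessibility and DNA copy number, and without a copy number measurement these cannot be told apart. When bin medians were removed, 2968 of the windows higher in PEA1 (55%) and 3337 of those higher in PEO1 (42.0%) remained called.

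**Figure D2:**
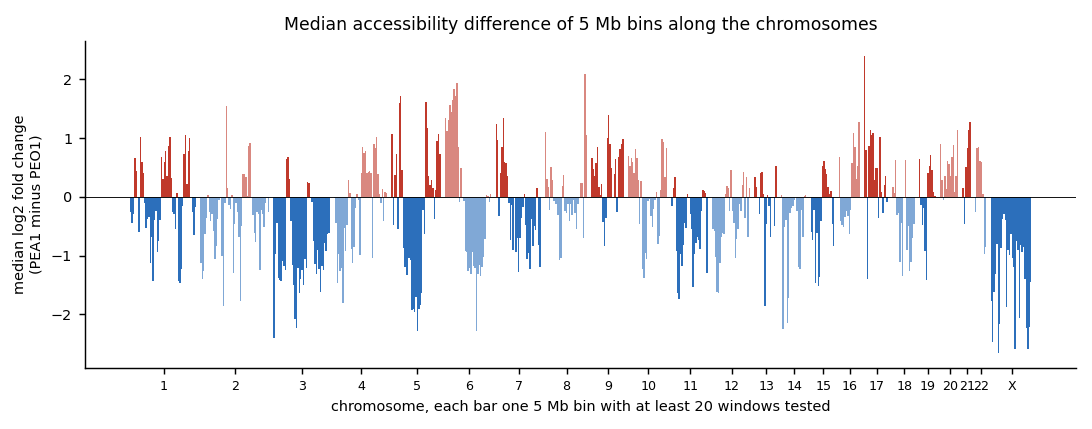
Median log2 fold change (y axis, PEA1 minus PEO1) of each 5 Mb bin with at least 20 windows tested, in order along each chromosome (x axis), red where positive and blue where negative. Neighbouring bins often share a sign, with the bins of the X chromosome all below 0 and the highest bar, 2.40, at the start of chromosome 17.

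Promoter windows with the largest differences on the PEA1 side included a single stretch of chromosome 9. CDKN2B, which encodes the CDK4 and CDK6 inhibitor p15, held 182, 221 and 76 reads in PEA1 at chr9:22008600-22009600 and 0 in all PEO1 libraries, at least 46.7-fold higher. At CDKN2A, which encodes the inhibitor p16 and the p53 regulator ARF, the ARF-side start held 186, 206 and 105 against 0, 1 and 0 reads and the canonical start 157, 168 and 96 against 0, 3 and 0. MTAP, an enzyme of methionine salvage, held 138, 119 and 51 against 0, 1 and 0 reads, and DMRTA1 held 150, 190 and 95 against 0 in each library. These promoters were chosen by size of change, and the stretch around them was looked for after their values were seen. Along chr9:21031200-23822200, 28 windows in a row held at most 3 reads in each PEO1 library, and 21 of them had a mean over 1 FPKM in PEA1. Summed over the 28 windows, PEO1 libraries held 0 to 14 reads and PEA1 libraries 1093 to 2292. The stretch also took in the promoters of KLHL9, HACD4 and ELAVL2. PEO4, from the same patient as PEO1, held 0 to 1 reads there, and PEA2, from the same patient as PEA1, held 1038 to 1573. No other run with 5 or more windows of the latter kind was found in either line. Absent DNA and closed chromatin can both give few or no reads in a window, and without a copy number measurement they cannot be told apart here.

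Other promoters with few or no reads in PEO1 lay elsewhere. NF2, which encodes the Hippo pathway tumour suppressor merlin, held 125, 139 and 61 reads in PEA1 and 0, 2 and 0 in PEO1, at least 32.5-fold higher, at chr22:29998800-29999800. GSTT1, a glutathione transferase, held 106, 89 and 59 against 0 in each PEO1 library, at least 26.4-fold higher. SERPINF2, which encodes alpha-2-antiplasmin, held 191, 210 and 100 against 1, 3 and 2 reads, and SMTNL2 held 211, 190 and 102 against 0, 5 and 2, both on the short arm of chromosome 17, where removal of bin medians lowered their log2 fold changes from 5.21 to 2.81 and from 5.33 to 2.93. In these windows every PEA1 library held at least 59 reads and no PEO1 library more than 5.

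The promoters higher in PEO1 by the largest amounts included those of a pair of T-box factors, TBX18 and TBX3. TBX18, a T-box factor of mesothelium and mesenchyme, had normalised FPKM of 0.377, 0.048 and 0.585 in PEA1 and 16.2, 16 and 16.5 in PEO1 at chr6:85473900-85474900 (log2 fold change -5.48 ± 0.35 SE, limma adjusted p = 2.2e-10). TBX3, another T-box factor, had 0.572, 0.524 and 1.02 against 18.8, 17.9 and 19.7 (log2 fold change -4.60 ± 0.19). These promoters were near the floor in PEA1 and among the open ones in PEO1, and the lines did not overlap. EPS8, an actin regulator acting downstream of receptor tyrosine kinases, held 92, 91 and 58 reads in PEO1 and 2, 5 and 1 in PEA1. BBOX1, an enzyme of carnitine synthesis, held 145, 225 and 142 against 10, 6 and 5, and TMEM232, CCDC89 and PRRG3 had log2 fold changes of -5.09, -4.46 and -4.28. After bin removal the promoters of this paragraph lay between -4.55 and -2.80.

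Gene lists were read at the canonical promoter, the window holding the start of the canonical transcript, with a gene said to be higher where the log2 fold change passed 1 in size and the limma adjusted p over all windows was under 0.05. By that rule 2118 (16.0%) of 13274 canonical promoters tested were higher in PEA1 and 1147 (8.64%) in PEO1, with a median of 0.13. This balance also turned with scaling, to 275 and 8068 promoters on the deposited scale, 1413 and 1942 with the GC trend removed and 1793 and 1779 with median centring. After bin removal 1109 and 526 of the 13274 passed, the background for the counts after bin removal given below.

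The epithelial list holds the junction, keratin and transcription factor genes of epithelia. Of 27 epithelial promoters tested, 16 were higher in PEO1 and 0 in PEA1, and the median was -1.23, negative under every scaling tried. CLDN4, a tight junction claudin, had normalised FPKM of 0.265, 0.524 and 0.329 in PEA1 and 4.13, 3.71 and 4.03 in PEO1 (log2 fold change -3.14 ± 0.26 SE, limma adjusted p = 5.9e-09). GRHL2, a grainyhead factor that maintains epithelial gene programmes, had 1.47, 1.71 and 1.95 against 12, 12.7 and 12.2 (log2 fold change -2.78 ± 0.14). ESRP1, an epithelial splicing regulator, had 1.87, 2.16 and 2.12 against 13.3, 11.1 and 12.2 (log2 fold change -2.51 ± 0.13). In these genes every PEO1 library lay far above every PEA1 library. EHF, an epithelial ETS factor, was more variable in PEO1, at 3.22, 2.63 and 1.26, against 0.156, 0.14 and 0.329 in PEA1. EPCAM, the epithelial adhesion molecule, had 1.71, 1.71 and 1.79 in PEA1 and 6.79, 6.37 and 7.35 in PEO1 (log2 fold change -1.92 ± 0.15, limma adjusted p = 2.0e-09). SPINT1, MAL2, CLDN7, PRSS8, OVOL1, KRT7, RAB25, GRHL1, ST14 and OVOL2 were among the others higher in PEO1, with log2 fold changes from -2.27 to -1.05. The difference did not pass the rule for CDH1, which encodes E-cadherin, at -0.32, nor for KRT8 (-0.20), KRT18 (-0.08), ESRP2 (-0.17), CDH3 (-0.12) or ELF3 (0.19), so it took in part of the list. After bin removal 20 of the 27 were higher in PEO1, although GRHL1 (0.03) and ST14 (0.22) no longer passed.

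The promoter of CLDN4 is shown as the 250 bases before the start on the plus strand of GRCh37, at chr7:73245076-73245325, with all motif matches in capitals. It holds the AP-1 motif, which 4.72% of 19504 promoters of this length hold, and not the GRHL motif. The other matches are a nuclear receptor half-site (AGGTCA) and an SP/KLF motif.
CLDN4: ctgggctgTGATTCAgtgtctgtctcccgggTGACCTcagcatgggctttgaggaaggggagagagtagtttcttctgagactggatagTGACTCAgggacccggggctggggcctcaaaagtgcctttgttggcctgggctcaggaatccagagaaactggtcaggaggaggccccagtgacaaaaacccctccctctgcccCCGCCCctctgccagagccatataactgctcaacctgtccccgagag

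Mesenchymal genes ran the other way. Of 23 mesenchymal promoters tested, 12 were higher in PEA1 and 1 in PEO1, with a median of 1.05, which turned to -0.30 on the deposited scale, where the median of all windows was -1.42 and 3 were higher in PEA1 and 7 in PEO1. VIM, which encodes the intermediate filament vimentin, had normalised FPKM of 18.4, 19.3 and 20.3 in PEA1 and 1.16, 1.04 and 0.996 in PEO1 (log2 fold change 4.06 ± 0.13 SE, limma adjusted p = 1.4e-13). TGFBI, a TGF-beta-induced matrix protein, had 7.49, 7.74 and 7.36 against 0.887, 0.622 and 0.927 (log2 fold change 3.08 ± 0.18). ZEB1, a repressor of epithelial genes, had 9.46, 9.61 and 8.89 against 2.32, 2.16 and 1.93 (log2 fold change 2.08 ± 0.13). These genes were separated by several times the spread between libraries. CDH11, a mesenchymal cadherin, had a log2 fold change of 2.18, and the receptor kinase AXL one of 2.02. COL6A1, LOXL2, TGFB2, TWIST1, SNAI1 and CDH2 were also higher in PEA1, at 1.83 to 1.05, although COL6A1 (0.55) and SNAI1 (0.40) lost the call after bin removal. SPARC, a matrix glycoprotein, was the exception, with 1.06, 1.22 and 1.29 in PEA1 and 5.46, 5.11 and 6.32 in PEO1 (log2 fold change -2.15 ± 0.18). SNAI2 (-0.28), CCN1 (0.09) and THBS1 (-0.30) did not pass. Of 71 distal windows nearest a mesenchymal gene, 17 were higher in PEA1 and 5 in PEO1, and of 85 nearest an epithelial gene, 1 and 7 were. Of all distal windows 8.30% and 17.6% were, so the epithelial shares lay below the background in both directions. Distal windows of the epithelial list thus did not exceed the background in PEO1 as its promoters did.

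**Figure D3:**
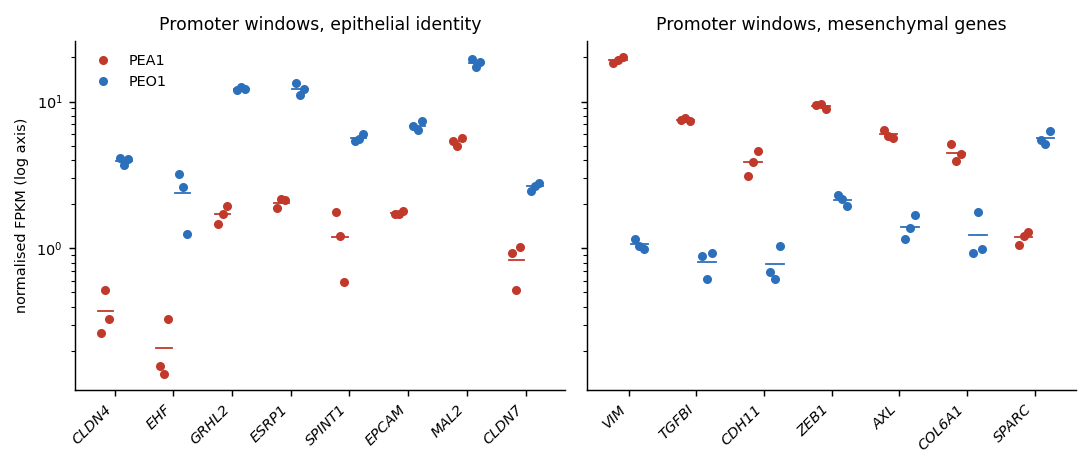
Normalised FPKM (y axis, log scale) of the canonical promoter windows of 8 epithelial and 7 mesenchymal genes in each of the 3 PEA1 (red) and 3 PEO1 (blue) libraries, with lines at the means. The lines do not overlap for any gene shown, PEO1 being higher for the epithelial genes and SPARC, and PEA1 for the other mesenchymal genes, with VIM at 18.4 to 20.3 against 0.996 to 1.16.

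The promoter of VIM, at chr10:17269990-17270239, holds a RUNX match, as do 2.85% of promoters of this length, and an SP/KLF match.
VIM: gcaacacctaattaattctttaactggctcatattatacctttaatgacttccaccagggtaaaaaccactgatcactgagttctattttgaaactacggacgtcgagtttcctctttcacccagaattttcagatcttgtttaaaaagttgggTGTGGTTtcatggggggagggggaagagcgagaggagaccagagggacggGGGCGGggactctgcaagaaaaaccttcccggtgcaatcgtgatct

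Müllerian and serous lineage genes were split between the lines. Of 17 tested, 7 were higher in PEA1 and 5 in PEO1, with a median of 0.81 that was -0.49 on the deposited scale, where 4 and 8 passed. PAX8, a transcription factor used as a Müllerian marker, did not pass, with 5.10, 4.59 and 7.02 in PEA1 and 4.89, 5.23 and 4.77 in PEO1. The lines overlapped at PAX8 and at MECOM (-0.11). The matrix gene SPON1 (3.57), HOXA10 (3.29), the mucin gene MUC1 (2.31), PAX2 (1.90), SOX17 (1.81) and CRABP2 (1.27) were also higher in PEA1. ESR1, which encodes estrogen receptor alpha, had 0.313, 0.996 and 0.694 in PEA1 and 5.01, 5.02 and 5.35 in PEO1 (log2 fold change -2.88 ± 0.28), and 5 of 12 distal windows nearest it were higher in PEO1 and 0 in PEA1. The kallikrein KLK6 (-2.67), CLDN3 (-1.90), the serous marker WT1 (-1.71) and mesothelin, MSLN (-1.01), were higher in PEO1, although CLDN3 (-0.96) and WT1 (-0.75) lost the call after bin removal, as did CRABP2 (0.25). The canonical promoters of HOXA9, HOXA11, PGR and MUC16 did not lie in tested windows.

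HOX genes, which pattern the body axis and the Müllerian tract, were higher in PEA1 where they differed. Of 20 tested, 11 were higher in PEA1 and 0 in PEO1, with a median of 1.29 that was 0.02 on the deposited scale, where 6 and 4 passed. HOXA13 had 6.05, 6.52 and 7.71 in PEA1 and 0.461, 0.335 and 0.28 in PEO1 (log2 fold change 3.91 ± 0.23 SE, limma adjusted p = 6.7e-11). HOXD9 had 4.59, 6.22 and 5.35 against 0.2, 0.335 and 0.28 (log2 fold change 3.89 ± 0.25). HOXD13 (3.09), HOXD8 (2.71), HOXA7 (2.55), HOXA6 (2.42), HOXD11, HOXD1, HOXA5 and HOXB5 followed, and the genes of a cluster lie close together and are not independent. After bin removal 6 were higher in PEA1 and 1 in PEO1.

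Cell cycle and signalling genes that passed were mostly higher in PEA1. Of 21 promoters of G1/S control, 6 were higher in PEA1 and 0 in PEO1, with a median of 0.72 that was -0.77 on the deposited scale, where 4 and 7 passed. Besides the chromosome 9 genes, CDKN1A, which encodes the p53 target p21, had 12.6, 11.5 and 10.6 in PEA1 and 1.60, 1.27 and 1.76 in PEO1 (log2 fold change 2.84 ± 0.15 SE, limma adjusted p = 2.3e-11). CCND3 (1.51) and CDKN1C (1.22) completed the group, and CCND3 was -0.42 after bin removal. Of 22 receptor tyrosine kinases, 8 were higher in PEA1 and 1 in PEO1, with a median of 0.39 that was -0.96 on the deposited scale, where 0 and 11 passed, and 3 and 4 passed with the GC trend removed. FGFR4 had 21.4, 19.8 and 20.7 against 4.07, 4.15 and 4.29 (log2 fold change 2.28 ± 0.10), FGFR1 was at 2.04, MERTK at 1.61 and RET at 1.30. EPHB3 was the kinase higher in PEO1, at -1.08, and was -0.29 after bin removal.

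DNA repair and platinum genes were called about as often as canonical promoters in general. Of 34 homologous recombination and Fanconi promoters, 6 were higher in PEA1 and 4 in PEO1, and 24 passed in neither direction. The counts were 0 and 24 on the deposited scale, 3 and 7 with the GC trend removed and 1 and 1 after bin removal, when none of the genes named here kept its call. FANCE, a Fanconi core complex member, had 8.83, 7.49 and 7.85 in PEA1 and 1.37, 2.16 and 1.76 in PEO1 (log2 fold change 2.15 ± 0.17 SE), but it lies in the raised part of chromosome 6 and was 0.44 after bin removal. RAD51C (1.72), RAD1 (1.27) and RAD51D (1.17) were higher in PEA1, though RAD1 was -0.32 after bin removal and -0.17 on the deposited scale, and RAD51D was -0.06 on the latter. XRCC2 (-1.81), FANCB on the X chromosome (-1.69), TP53BP1 (-1.03) and FANCF (-1.0) were higher in PEO1. FANCF was 0.63 after bin removal. TP53BP1 and FANCF fell short of the rule when single libraries were left out, at -0.90 and -0.95 for TP53BP1 without PEA1 replicate 2 or PEO1 replicate 1, and at -0.94 to -1.0 for FANCF without PEA1 replicate 1 or any PEO1 library. Of 31 platinum transport and nucleotide excision repair promoters, 4 were higher in PEA1 and 3 in PEO1, against 0 and 22 on the deposited scale, 1 and 3 with the GC trend removed and 0 and 2 after bin removal. ABCB1, which encodes the multidrug efflux pump P-glycoprotein, had 0.377, 0.342 and 0.694 in PEA1 and 2.79, 3.10 and 2.40 in PEO1 (log2 fold change -2.37 ± 0.29, limma adjusted p = 5.7e-07). The repair genes ERCC8 (-1.13) and ERCC4 (-1.05) were higher in PEO1, and SLC31A2 (1.38), ABCC3 (1.20), POLH (1.13) and NFE2L2 (1.09) in PEA1. ERCC8 turned to 0.20 after bin removal, POLH to -0.81 after bin removal and -0.13 on the deposited scale, and ABCC3 and NFE2L2 to -0.04 and -0.40 on the deposited scale. ERCC4 was -0.88 without PEA1 replicate 3, POLH 0.99 without PEO1 replicate 3 and NFE2L2 0.95 without PEO1 replicate 1.

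Transcription factor families that read the distal motifs were compared at their own promoters. Of 20 AP-1, TEAD and nuclear factor I genes, 5 were higher in PEA1 and 2 in PEO1, but 1 and 1 after bin removal (BATF3 and VGLL1), 1 and 3 with the GC trend removed and 1 and 13 on the deposited scale. BATF3 had 6.12, 6.05 and 5.35 in PEA1 and 1.30, 0.996 and 0.726 in PEO1 (log2 fold change 2.45 ± 0.20 SE), and NFIC (1.34), TEAD3 (1.33), ATF3 (1.23) and FOSB (1.02) were higher in PEA1. TEAD3 turned to -0.38 after bin removal and -0.09 on the deposited scale, and ATF3 to -0.42 on the latter. VGLL1, a TEAD cofactor on the X chromosome, had 0.108, 0.048 and 0.399 in PEA1 and 3.71, 4 and 3.22 in PEO1 (log2 fold change -3.91 ± 0.38). VGLL3 was at -1.34. Of 23 SOX, GATA, FOX and RUNX genes, 9 were higher in PEA1 and 4 in PEO1, with a median of 0.64 that was -0.80 on the deposited scale, where 3 and 10 passed. After bin removal 6 and 1 passed. SOX18 (2.51), the ovarian granulosa factor FOXL2 (2.50), GATA5 (2.28) and FOXF2 (2.03) led in PEA1. SOX11, a factor of neural progenitors, had 0.377, 0.585 and 0.329 in PEA1 and 3.95, 4.15 and 5.02 in PEO1 (log2 fold change -3.10 ± 0.25), and SOX5 (-1.27), SOX2 (-1.22) and FOXM1 (-1.06) were higher in PEO1, although SOX5 turned to 0.37 and SOX2 fell short at -0.44 after bin removal and FOXM1 was -0.97 without PEO1 replicate 2. The canonical promoters of RUNX1, RUNX2 and RUNX3 did not lie in tested windows.

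Interferon and antigen presentation genes were mostly higher in PEA1 where they differed, with 15 of 36 higher in PEA1 and 3 in PEO1 and a median of 0.64, which was -0.56 on the deposited scale, where 1 and 10 passed. BST2, the antiviral tetherin, had 3.42, 3.79 and 3.51 in PEA1 and 0.121, 0.43 and 0.28 in PEO1 (log2 fold change 3.37 ± 0.32 SE, limma adjusted p = 2.4e-08). TAPBP (2.08), HLA-E (2.00), OAS2 (1.81), NLRC5 (1.75) and the window shared by TAP1 and PSMB9 (1.72) followed. Genes of the MHC lie in the raised part of chromosome 6: after bin removal 6 genes of the list were higher in PEA1 and 6 in PEO1, with TAPBP at 0.25, HLA-E at 0.16 and TAP1 at -0.11. CIITA, the master regulator of MHC class II genes, had 0.499, 0.816 and 0.499 in PEA1 and 5.01, 4.25 and 5.11 in PEO1 (log2 fold change -2.82 ± 0.23). IRF7 (-2.76) and IFI27 (-2.29) were also higher in PEO1.

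Markers of other cell types were measured in the same way. Of 10 fibroblast markers, 1 had a listed canonical promoter, THY1, which did not differ by the rule, and DCN, LUM, PDGFRA and FAP had none. Sums in this paragraph are of deposited FPKM, on which the median log2 fold change of all windows was -1.42, so they lean to PEO1. THY1 was 0.15 after normalisation and -1.16 on the deposited scale. Summed deposited FPKM of that list was 0.62 to 0.87 in PEA1 and 1.45 to 2.23 in PEO1. Of 10 leukocyte markers, 3 were tested and none passed, and PTPRC, CD3E and SPI1 were not listed, with sums of 4.08 to 5.23 and 9.86 to 12.7. KDR (1.14) was the endothelial marker tested, and it turned to -0.10 on the deposited scale, with sums of 2.64 to 2.83 and 2.73 to 3.12. Of 5 mesothelial markers tested, TBX18, UPK3B (-2.37) and KRT5 (-1.91) were higher in PEO1 and CALB2 (1.23, and 0.38 after bin removal) in PEA1, with sums of 6.81 to 8.26 in PEA1 and 53.7 to 57.9 in PEO1. In every listed window at least 2 of the 18 libraries exceeded 2 FPKM. Why a promoter is missing from the list was not tested, so its absence does not show that it was closed. Of 10 genes that the study singles out in its account of the resistant lines, 9 were tested and 0 passed in either direction, including PARP9 (0.41), SPHK1 (0.48), BCAM (0.73), SOX9 (-0.00) and TLE4 (-0.04). The counts higher in PEA1 and in PEO1 were 0 and 5 on the deposited scale, 2 and 0 after bin removal and 1 and 0 with the GC trend removed.

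**Figure D4:**
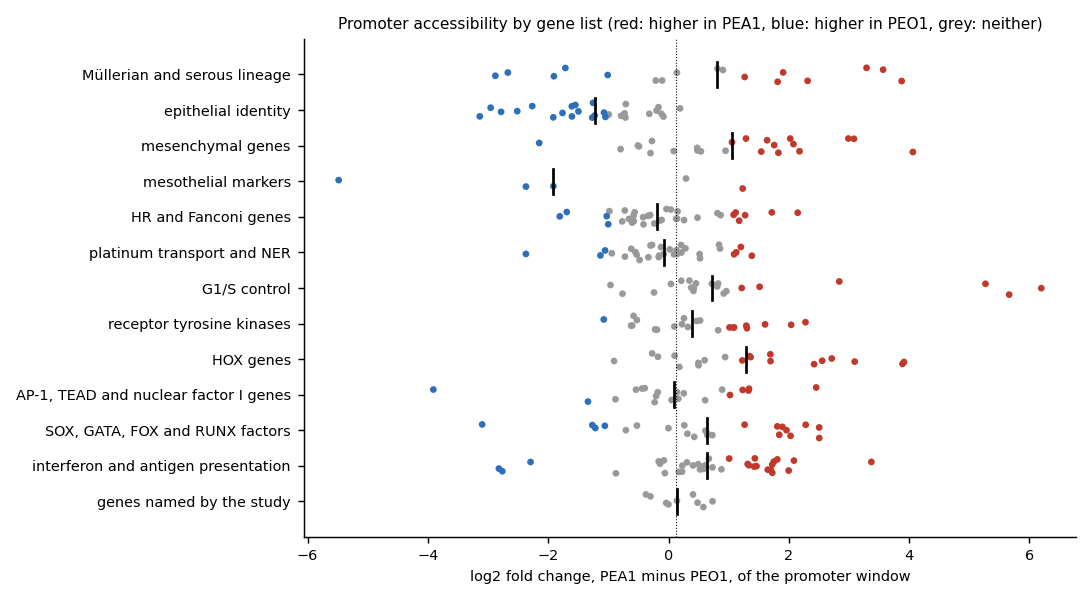
Log2 fold change (x axis, PEA1 minus PEO1) of each tested canonical promoter in 13 gene lists, with points red where higher in PEA1, blue where higher in PEO1 and grey where neither, a bar at the list median and a dotted line at the median of all canonical promoters (0.13). Epithelial points lie mostly to the left of the line with 0 red points, and mesenchymal and HOX points mostly to the right.

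PEA2 and PEO4, the platinum-resistant lines from the same patients as PEA1 and PEO1, share no library with them and gave the difference between the patients' lines again. Between PEA2 and PEO4, 9159 of 79072 windows (11.6%) were higher in PEA2 and 7347 (9.29%) in PEO4. Of the 5395 windows higher in PEA1, 3773 were tested there, and 945 were higher in PEA2 (17.5% of that list and 10.3% of the PEA2 list) and 48 were higher in PEO4. Of the 7949 higher in PEO1, 5802 were tested there, and 1417 were higher in PEO4 (17.8% of that list and 19.3% of the PEO4 list) and 298 were higher in PEA2. Among windows tested in both comparisons the sign was shared by 76.0% of those higher in PEA1 and 63.3% of those higher in PEO1, against 55.3% of all windows. The chromosome 9 stretch, NF2 and GSTT1 were kept: CDKN2B was at 5.49, DMRTA1 at 6.35, NF2 at 5.88 and GSTT1 at 6.43 between PEA2 and PEO4. HOXD9 (3.70), TGFBI (2.54), GRHL2 (-2.25), ESR1 (-2.18), SOX11 (-2.45) and BBOX1 (-4.05) also passed there in the same direction.

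Other differences changed in size in the resistant lines, by a test, within 1 model of 12 libraries, of whether both fold changes were equal. The genes had been chosen for a large PEA1 minus PEO1 fold change, which is part of that test. That choice favours a smaller fold change between the resistant lines. Bin medians were not removed in that fit. At VIM the fold change was 4.07 between PEA1 and PEO1 and -0.63 between PEA2 and PEO4 in that fit, a difference of 4.70 (limma adjusted p = 5.0e-15). TBX3 went from -4.59 to 0.94 (difference -5.53, limma adjusted p = 1.6e-15), EHF from -2.89 to 1.46 (difference -4.35), and CDKN1A from 2.80 to 0.08 (difference 2.72). The difference of TGFBI was 0.44, with a limma adjusted p of 0.10, and that of GRHL2 was -0.54. The epithelial list had a median of -0.71 between PEA2 and PEO4, with 3 promoters higher in PEA2 and 10 in PEO4, and the mesenchymal list -0.10, with 2 and 5. All canonical promoters had a median of -0.53 in that comparison, so the epithelial median lay near the background. The share of all promoters called there was not counted.

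**Figure D5:**
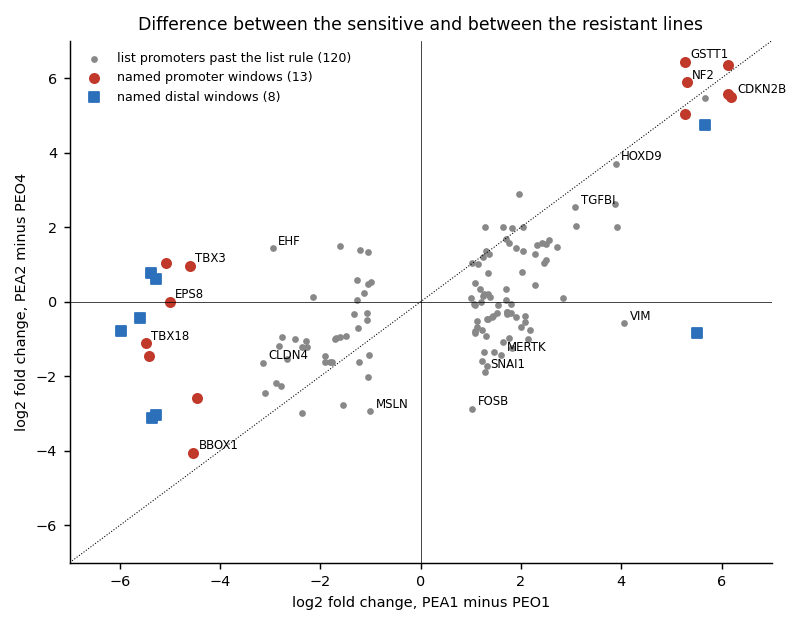
Log2 fold change between PEA1 and PEO1 (x axis) and between PEA2 and PEO4 (y axis) for 120 list promoters that passed the list rule (grey), 13 named promoter windows (red) and 8 named distal windows (blue squares) tested in both, with a dotted line of equality. CDKN2B, NF2, GSTT1 and BBOX1 lie near the line, whereas VIM, TBX3, EPS8 and EHF lie near or across the horizontal axis.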

How the data were processed

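ATAC-seq of PEA1 and PEO1 (3 libraries each) was compared, with PEA2, PEO4, A2780 and CP70 in the same table. Per the study's methods, the authors removed duplicates with Picard, kept unique Bowtie2 alignments to hg19, removed blacklisted reads, counted windows with featureCounts and deposited FPKM (rpkm function of edgeR). Versions were not given in the sources used here. Windows are of one length, so the deposited FPKM is proportional to RPM, and 100% of values in all 18 libraries were whole multiples of 1 read within 0.1 read. Library totals so recovered, with 1001 bases per window, were 20835511 to 32068269 reads in PEA1 and 8963079 to 11449840 in PEO1, with medians of 22 to 42 and 25 to 33 reads per window. Replicate libraries differed by more than sampling noise (chi-square per window 1.16 to 1.52 in PEA1, 1.07 to 1.09 in PEO1) and were all kept. Counting bounds cover counting error only.

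Values were taken as log2(FPKM + 0.1), quantile normalised over the 6 libraries and filtered at a mean over 1 FPKM. Normalised FPKM is the normalised value returned to the linear scale. The comparison was fitted in R 4.3.3 by limma 3.58.1, whose eBayes step used a mean-variance trend, with Benjamini-Hochberg adjustment over all windows tested. The study weighted counts with voom; the deposited values are no counts, so the trend took its place. The 0.1 added to each value makes fold changes of low windows smaller than they are. Bounds count 3 reads per library. edgeR 4.0.16 and DESeq2 1.42.0 were run on recovered reads as alternatives. Tested on simulated reads (77245 windows, 200 changed by a log2 fold of 3 or 4), limma recovered 100% with 0 false calls. The changed windows were drawn from the better covered ones, and all others had the same rate in both lines. The simulation held no chromosome blocks and no GC trend between the lines, so it does not show how often real calls are wrong. Genes and classes are from GENCODE release 44 on GRCh37, whose chromosome lengths matched the window numbers at 23 of 23 steps.

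Windows were named by size: in each direction 8 promoter windows (within 1 kb of a start) and 6 distal windows, called, not overlapping between lines and still called after removal of 5 Mb bin medians, then 3 clusters, the 5 genes with most distal calls and the extreme bins. From each gene list up to 4 members per direction were carried into the alternatives. Some named genes and sequences are not reported here. The members and lists were chosen with earlier results of these data known. Alternatives were scaling, pseudocount, filter, thresholds, test, replicate block and leaving out each library. Replicate numbers did not pair libraries: deviations of same-numbered libraries correlated at 0.0297, -0.018 and 0.00565.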

Additional observations from a re-analysis of the deposited data

Results flagged for a closer look

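The difference between PEA1 and PEO1 was set against that between PEA2 and PEO4, the resistant lines of the same patients, with 1 limma model over the 12 libraries. Of 103 named windows and promoters, 35 passed both a size cut and the test of the difference itself. Of these, 34 are given, and each value is the PEA1 minus PEO1 log2 fold change less the PEA2 minus PEO4 one. The smallest given is 2.10 in size. Smaller differences with a low p-value were left out, such as CCDC89 (-1.73, limma adjusted p = 3.9e-05) and GSTT1 (-1.23, limma adjusted p = 0.0086).

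Among promoters higher in PEA1, the differences were 3.91 at SMTNL2 and 3.94 at SERPINF2. Among its distal windows they were 4.35 at chr17:4383900-4384900, 3.97 at chr6:45655200-45656200, 5.02 at chr21:33971400-33972400, 5.35 at chr10:3903300-3904300 and 6.37 at chr8:126653400-126654400. For promoters higher in PEO1 they were -4.30 at TBX18, -5.97 at TMEM232, -4.85 at EPS8, -5.53 at TBX3 and -3.76 at PRRG3. Its distal windows gave -5.07 at chrX:147690900-147691900, -5.08 at chr10:44796600-44797600, -6.09 at chr5:81652500-81653500, -2.11 at chrX:138187800-138188800, -2.13 at chr14:83322000-83323000 and -5.91 at chrX:14507100-14508100. These windows were named for a large difference between PEA1 and PEO1, so the choice used part of the test. Bin medians were not removed in this model, so shifts of whole chromosome blocks remain in the differences. The chrX bin at 135 to 140 Mb had a median of -2.23 between PEA1 and PEO1 and -0.22 between PEA2 and PEO4. For chromosome 6 at 30 to 35 Mb the medians were 1.83 and -0.85, and for chromosome 17 at 0 to 5 Mb 2.40 and -0.28. How much of each difference these blocks hold was not tested.

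List promoters with a positive difference were VIM (4.70), FANCE (3.12), MERTK (3.07), TEAD3 (3.06), CDH11 (2.87), CDKN1A (2.72), HLA-E (2.64), BST2 (2.58), BCAM (2.52), TAPBP (2.45), RET (2.21) and OAS2 (2.10). Those with a negative difference were EHF (-4.35), SOX2 (-2.59), VGLL1 (-2.56) and SPARC (-2.21). Apart from genes that the study names, list promoters were also carried by the size of their PEA1 minus PEO1 fold change. The limits given for the named windows hold for them too. In the same model MERTK was 1.63 between PEA1 and PEO1 and -1.44 between PEA2 and PEO4, FANCE was 2.10 and -1.01, and SOX2 was -1.24 and 1.35.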

How the results depend on the processing

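Counts of windows higher in PEA1 and in PEO1 depended most on scaling, pseudocount and filter. They were 2168 and 24655 on the deposited FPKM, 3575 and 4183 with 5 Mb bin medians removed, 5841 and 3646 with the GC trend removed, 3183 and 3351 with a pseudocount of 0.5, 1190 and 1203 with 1, 1422 and 5072 with a mean over 2 FPKM, 77 and 1157 with a mean over 5 FPKM, and 13946 and 19785 at a log2 fold change over 1 and adjusted p under 0.05. The share of calls higher in PEA1, 40.4% as reported, was 8.08% on the deposited FPKM, 61.6% with the GC trend removed, 21.9% with a mean over 2 FPKM and 6.24% with a mean over 5 FPKM. edgeR called 6727 and 7071 windows and DESeq2 6921 and 6914. Leaving out each library gave 4549 to 5678 and 6902 to 8692. For PEA2 and PEO4 the counts were 5439 and 4483 with bin medians removed, 2198 and 1069 with a pseudocount of 1 and 3187 and 4097 with a mean over 2 FPKM, and 13870 were higher in PEO4 on the deposited FPKM. The share of windows higher in PEA1 that were also higher in PEA2 was 18.7% with median centring, 11% with a mean over 2 FPKM and 8.91% with a pseudocount of 1. That for PEO1 and PEO4 was 19.2% on the deposited FPKM, 19.2% with median centring, 20.01% with bin medians removed, 13.1% with a mean over 2 FPKM and 10.4% with a pseudocount of 1. The cause of these shifts was not tested.

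Of the 108 named values recomputed under the alternatives, the log2 fold change turned on the deposited FPKM for KDR (-0.10), RAD1 (-0.17), RAD51D (-0.061), ABCC3 (-0.040), POLH (-0.13), NFE2L2 (-0.40), TEAD3 (-0.088) and ATF3 (-0.42). With bin medians removed it turned for RAD1 (-0.32), FANCF (0.63), POLH (-0.81), ERCC8 (0.20), TEAD3 (-0.38) and SOX5 (0.37). Of the 80 list genes among them, 50 kept direction and call with bin medians removed, while the 28 named windows had been chosen to do so. Of all 108, 81 kept both on the deposited FPKM, 96 with the GC trend removed, 93 with a pseudocount of 1 and 105 with edgeR. EPHB3 was -0.94 without PEA1 replicate 2 and then missed the rule. With the replicate number as a block, 5395 and 7979 windows were called and all 108 named values kept their call. Depth limits what a count of 0 shows: listed windows held 2678402 to 5399988 reads in PEA1 libraries and 3489443 to 4674909 in PEO1 libraries.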
